A study of Mus musculus with 663 samples.

Results

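The stromal cells of the ovary at postnatal day 6 (P6) were described here: 65 of 121 P6 cells, and of 662 cells in the whole series. They were chosen by measured values. For each P6 cell, T was the mean log2(RPKM + 1) of the stromal genes Nr2f2, Pdgfra, Dcn, Col1a1 and Ogn, and G was the same mean of the granulosa genes Inha, Hsd17b1, Esr2, Nr5a2 and Foxl2. Cells with T minus G of at least 1 were the members, and the other 56 P6 cells were set beside them. RPKM is reads per kilobase of gene, scaled to the library's total reads.

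The series measured single somatic cells of XX mouse gonads at 6 stages, the embryonic ones written E10.5 and so on in days, the last being P6. All cells, at every stage, came from mice of a mixed background with the genotype NR5A1-eGFP, a fluorescent reporter of the gonadal transcription factor Nr5a1. Live reporter-positive cells were sorted and captured on small C1 microfluidic chips, so stromal cells without the reporter were not sampled. Each run of a chip, called a capture, served as the replicate: capture 1 of P6 held 25 members and 30 other cells, and capture 2 held 40 members and 26 other cells. Cells are not replicates, and the labels do not state whether the 2 captures came from separate litters. The p-values thus reflect at most the variation between chip runs and nothing wider. In the paired P6 comparison they use a spread shared across genes and not each gene's own. For the comparison with an earlier stage, 58 cells of 2 E16.5 captures that passed the same gate were used.

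The ovarian stroma lies between the follicles and is made of fibroblast-type cells that lay down collagen and proteoglycans. Around growing follicles some of these cells become the theca, which responds to hedgehog proteins made by granulosa cells and later makes androgens. Hedgehog ligands bind the receptor Ptch1, which releases Smo and activates the Gli factors, and Ptch1, Gli1 and Hhip are themselves targets of the pathway. The outer sheath of vessels and organs, the adventitia, holds fibroblasts that carry Cd34 and elastic microfibril proteins such as Mfap5.

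Members had fewer detected genes (at least 1 RPKM) than the other cells, with a median of 3399 and 2804 per cell in captures 1 and 2, against 4188 and 3319. Sequencing depth, worked out from what a single read is worth in each cell, had medians of 2.36 and 1.77 M reads in members, against 2.58 and 2.49 M reads in other cells. Mitochondrial transcripts made up a median of 3.77% and 4.46% of all RPKM in members, against 6.30% and 4.64%. The part of depth in the results below was not tested. Reads carried no molecular identifiers, so intervals given for shares of cells cover counting error only.

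On the scores that set the gate, the lowest members had T minus G of 1.64, 2.29 and 2.37, and the highest other cells had 0.70, 0.61 and 0.46. T had a median of 7.07 in members, against 0.77 in other cells, and G a median of 1.11, against 4.01. At least 4 of the 5 stromal gate genes were found in 61 of 65 members. Their share was 45.5% in capture 1 (exact 95% binomial interval 32 to 59.4%) and 60.6% in capture 2 (47.8 to 72.4%). Both scores reached 2 in 6 members and 3 other cells, and 8 other cells had T minus G between -1 and 1.

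**Figure D1:**
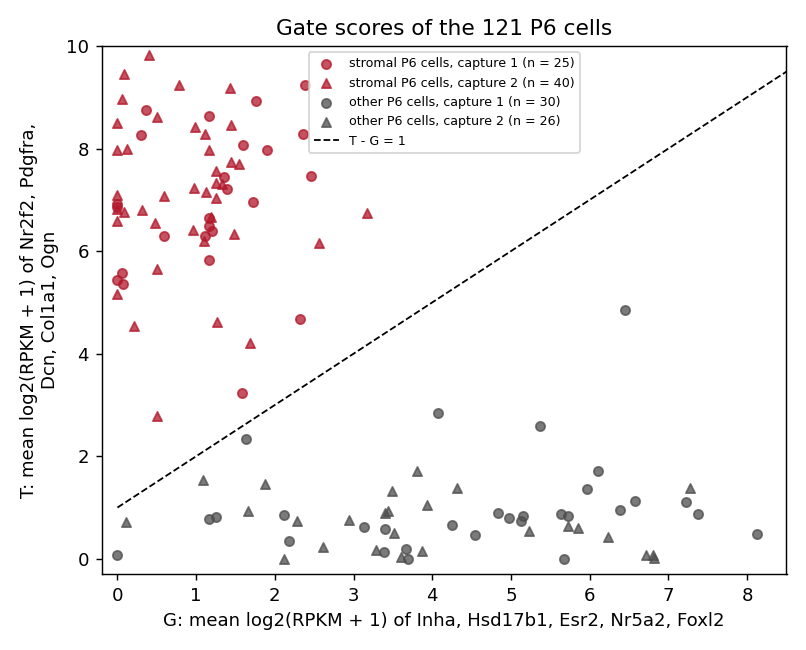
Each point is a P6 cell, with the granulosa score G on the horizontal axis and the stromal score T on the vertical axis, both as mean log2(RPKM + 1). Stromal cells are red and other cells grey, circles are capture 1 and triangles capture 2, and the dashed line is the gate at T minus G of 1. The lowest member lay at 1.64 and the highest other cell at 0.70.

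The gate genes themselves are given as a description. Nr2f2, the nuclear receptor COUP-TFII of ovarian interstitial cells, averaged 236 and 372 RPKM in members of captures 1 and 2, against 15.8 and 13.52 RPKM in other cells. The proteoglycan decorin (Dcn) averaged 1095 and 1695 RPKM, against 26.1 and 0.796 RPKM. Foxl2, the transcription factor of granulosa fate, was the gate gene that separated least. It averaged 19 and 25.8 RPKM in members, against 27.8 and 26.6 RPKM in other cells, and was found in 36 of 65 members and 39 of 56 other cells. Nr2f2 was found in all 65 members, so the 36 with Foxl2 necessarily held it too. Inha, the inhibin alpha subunit, averaged 47.5 and 32 RPKM in members, against 3236 and 1916 RPKM.

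Of 15407 genes tested outside the gate, 317 were higher in members (2.06%) and 310 were lower (2.01%), by limma on the profiles of each capture, paired by capture, at an adjusted p under 0.05. At least a 4-fold difference in each of both captures was found for 472 genes that were higher (3.06%) and 460 that were lower (2.99%). With profiles made as means over cells of log2 values, 346 and 569 of 7835 genes were called higher and lower. The cells were split on 10 genes measured in the same libraries, so a gene that varies with those 10 over cells had to differ, and the calls are no independent evidence of the split. They also rest wholly on a spread shared across genes, with 1 residual degree of freedom. A gene's own disagreement between the captures therefore carried no weight in its p-value. Without the pairing, 35 and 32 genes were called. All 67 were among the 627, and so were the 67 called in a joint fit with the E16.5 captures, with 41 genes called in all 3 fits. In the joint fit with P6 capture 1 or 2 left out, 0 genes were called by limma (1754 and 1729 at an unadjusted p under 0.05), and so too with no filter on low values (1143). Among the genes described below, Tcf21, Lum, Bgn, Mfap4, Mfap2, Col1a2, Sfrp1, Acta2, Tagln, Penk, Apoa1, Aldh1a2, Wfdc10, Rhox8, Ephx2 and Gata6 were called in all 3 of the paired, unpaired and joint fits. The lists of genes counted below were chosen with earlier results of these data known, so their counts are no independent evidence either. Each count is to be read beside the shares of 2.06% higher and 2.01% lower over all genes tested.

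The gene with the largest rise outside the gate was Tcf21, a basic helix-loop-helix factor of mesenchymal progenitors. It averaged 419 and 505 RPKM in members, against 1.52 and 0.050 RPKM in other cells (log2 difference 8.15 ± 0.69 SE, adjusted p = 2.9e-28, limma). It was found in 56 of 65 members and 3 of 56 other cells, with medians of 239 and 235 RPKM in members and of 0 in the other cells of both captures. The 2 capture means of members lay far above those of other cells, although single cells overlapped at 0. Maf, another factor of stromal cells, averaged 32.4 and 80.8 RPKM in members, against 7.89 and 4.39 RPKM, and rose as well (log2 difference 2.92 ± 0.77, adjusted p = 0.0071, limma). Ebf1 also passed the test but rested on 9 member cells. Of 17 stromal transcription factors tested, these 3 were called higher and 0 lower, and their median log2 difference was 2.49, against -0.01 over all genes. Klf4 and Meis1 were not called, with Meis1 at 58.8 and 14.5 RPKM in members, against 5.99 and 3.19 RPKM.

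Matrix genes were among the strongest rises. Lumican (Lum), a small proteoglycan that spaces collagen fibrils, averaged 341 and 511 RPKM in members, against 4.90 and 0.028 RPKM (log2 difference 7.41 ± 0.66, adjusted p = 1.2e-25, limma). Biglycan (Bgn) averaged 201 and 132 RPKM, against 3.85 and 0.013 RPKM. Aspn was called as well, but was found in 8 members only. Of 5 proteoglycans tested, these 3 were called higher, while Omd and Prelp were not called.

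The microfibril protein gene Mfap4 averaged 397 and 316 RPKM in members, against 4.27 and 0.020 RPKM in other cells (log2 difference 7.26 ± 0.68, adjusted p = 4.9e-23, limma). Mfap2 was also high in the other cells, with 1520 and 1128 RPKM in members, against 349 and 348 RPKM. Of 16 elastic fibre genes tested, 5 were called higher, among them Ltbp4 and Efemp2, and 0 lower, against 2.06% and 2.01% of all genes. Fbln1, Fbn1 and Fbn2 were not called, with Fbn2 at 38.2 and 23.1 RPKM in members, against 21.3 and 21.7 RPKM.

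Col1a2, the partner chain of the gate gene Col1a1, averaged 321 and 285 RPKM in members, against 6.13 and 3.18 RPKM (log2 difference 5.80 ± 0.61, adjusted p = 5.6e-18, limma). Of 14 collagen genes tested, 6 were called higher and 1 lower, against 2.06% and 2.01% of all genes. The 6 were fibrillar or type VI chains, among them Col1a2, Col3a1, Col6a1 and Col6a2, while the fibrillar chain Col5a2 was not called (adjusted p = 0.18, limma). Col18a1, a basement membrane collagen, fell: it was at 0 and 0.0048 RPKM in members, against 11.6 and 41 RPKM in other cells (log2 difference -4.52 ± 1.13, adjusted p = 0.0036, limma). The basement membrane chains Col4a1 and Col4a2 were not called, with Col4a1 at 99.6 and 30.4 RPKM in members, against 5.43 and 30.3 RPKM. In matrix turnover, 5 of 15 genes were called higher, against 2.06% of all genes. Among these 5 were the gelatinase Mmp2 at 191 and 218 RPKM in members, against 18.6 and 0.513 RPKM, and the fibronectin gene Fn1 at 45.1 and 21.6 RPKM, against 1.66 and 0.0023 RPKM.

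**Figure D2:**
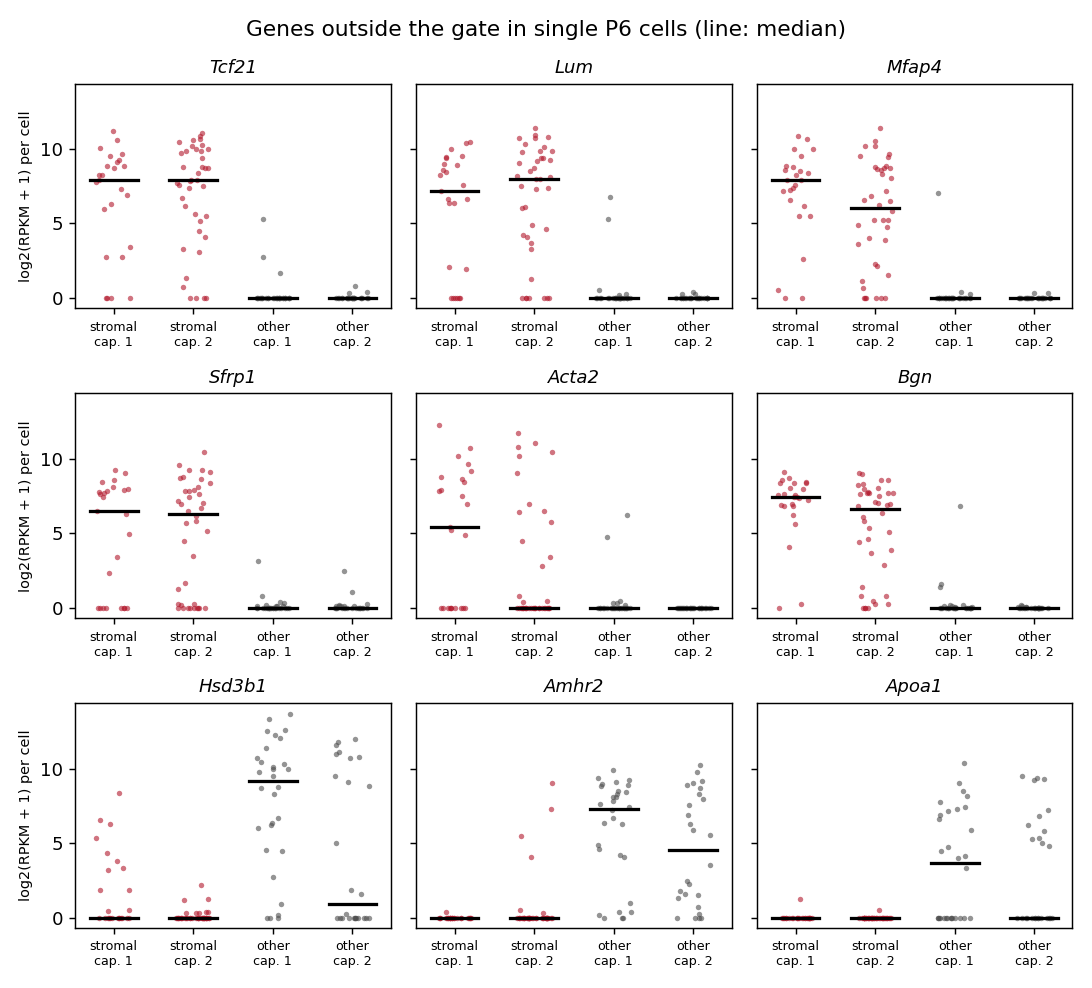
Each panel shows a gene outside the gate, with log2(RPKM + 1) of each P6 cell on the vertical axis, stromal cells in red on the left and other cells in grey on the right, by capture. Lines are medians. Tcf21, Lum, Mfap4, Sfrp1, Acta2 and Bgn were higher in stromal cells, and Hsd3b1, Amhr2 and Apoa1 were lower, with cells at 0 in both classes.

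Sfrp1, a secreted inhibitor of Wnt signals, averaged 153 and 193 RPKM in members, against 0.318 and 0.244 RPKM (log2 difference 7.08 ± 0.83, adjusted p = 9.4e-15, limma). Of 10 Wnt pathway genes tested, Sfrp1 and Dkk3 were called higher and Wnt6 lower. Wnt4, which is often read as a granulosa gene, was not called and stood at 12 and 25 RPKM in members, against 2.06 and 3.94 RPKM. Igf1 rose, with 377 and 265 RPKM in members, against 64.4 and 44.5 RPKM, and so did the binding proteins Igfbp4, Igfbp6 and Igfbp7, while the receptors Igf1r and Igf2r were not called. That made 4 of 10 genes of the insulin-like growth factor list higher and 0 lower, against 2.06% and 2.01% of all genes.

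The complement inhibitor gene Serping1 averaged 248.6 and 219 RPKM in members, against 36.4 and 0.026 RPKM in other cells (log2 difference 5.24 ± 0.63, adjusted p = 3.3e-14, limma). The chemokine gene Cxcl12 also rose. Of 7 cytokine and complement genes tested, 3 were called higher and 0 lower, against 2.06% and 2.01% of all genes. Cxcl12 averaged 36.8 and 49.6 RPKM in members, against 0.047 and 0.0083 RPKM. The opioid precursor gene Penk averaged 246 and 118 RPKM, against 0.956 and 0.0073 RPKM, and the growth factor gene Nrg1 290 and 143 RPKM, against 6.74 and 0.022 RPKM. Nrg1 was found in 23 members, so its mean was carried by a minority of cells.

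Retinoid genes went both ways, with 4 of 8 tested called higher and 2 lower, against 2.06% and 2.01% of all genes. The retinol carrier Rbp4, the receptor gene Rarb and Rarres2 were among those called higher in members, with Rarres2 at 746 and 532 RPKM, against 107 and 28.2 RPKM. Rarb was found in 5 members only. The enzymes Aldh1a1 and Aldh1a2, which make retinoic acid, were lower. Aldh1a2 was at 0.026 and 0.037 RPKM in members, against 88.8 and 68.8 RPKM in other cells, in which it was found in 12 of 56.

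The gene with the largest fall was Hsd3b1, whose enzyme turns pregnenolone into progesterone. It averaged 23.8 and 0.187 RPKM in members, against 1923 and 771 RPKM in other cells (log2 difference -7.81 ± 0.50, adjusted p = 3.4e-51, limma). The fit without the pairing did not call it, though the joint fit did. Hsd3b1 has close paralogs, and how the authors' counting split reads between them is not given. Amhr2, the receptor of anti-Müllerian hormone, averaged 0.013 and 18.1 RPKM in members, against 226 and 198 RPKM, and was found in 4 of 65 members and 43 of 56 other cells. Inhbb, an activin and inhibin subunit, averaged 0.057 and 0.926 RPKM in members, against 57.6 and 61.9 RPKM.

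Of 14 granulosa genes outside the gate that were tested, 9 were called lower and 0 higher, against 2.01% and 2.06% of all genes tested. Their median log2 difference was -3.28. The 9 included Gatm, Amhr2, Slc18a2, Serpine2 and Inhbb. Wnt4, also on this list, went the other way, being at least 4-fold higher in members in both captures without being called. The gate itself chose members for low granulosa genes. A member held a median of 1 of the 15 granulosa genes in either capture and at most 5, against medians of 7 and 5.5 in other cells. After Hsd3b1, the largest falls by the rule for named genes were in Zg16, Kazald1, Apoa1, Wfdc10, Rhox8, Spin2c, Aldh1a2, Tnni3 and Ephx2, none of them on the granulosa or steroid lists. Apoa1, the main protein of high density lipoprotein, averaged 0.055 and 0.010 RPKM in members, against 117 and 121 RPKM, and Ephx2, an epoxide hydrolase, 5.26 and 1.26 RPKM, against 296 and 218 RPKM.

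No member held the theca hormone gene Insl3, the androgen enzyme gene Cyp17a1 or Star, which carries cholesterol into mitochondria, at 1 RPKM or more. A count of 0 of 65 cells has an exact 95% upper bound of 5.52% of members, for detection at 1 RPKM at this depth and not for expression. Cyp11a1, which makes pregnenolone, was found in 2 members, and the luteinising hormone receptor gene Lhcgr in 2. Of 9 steroid synthesis genes tested, Hsd3b1 and Cyp19a1 were called lower and 0 higher, and of 7 theca genes tested, Hsd3b1 and Aldh1a1 were called lower and 0 higher. Fdx1, Hsd17b7 and Por were not called, with Fdx1 at 25.8 and 9.74 RPKM in members, against 15 and 16.7 RPKM. The adrenal-type genes Cyp11b1, Cyp21a1 and Mc2r were below 1 RPKM in every P6 cell.

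**Figure D3:**
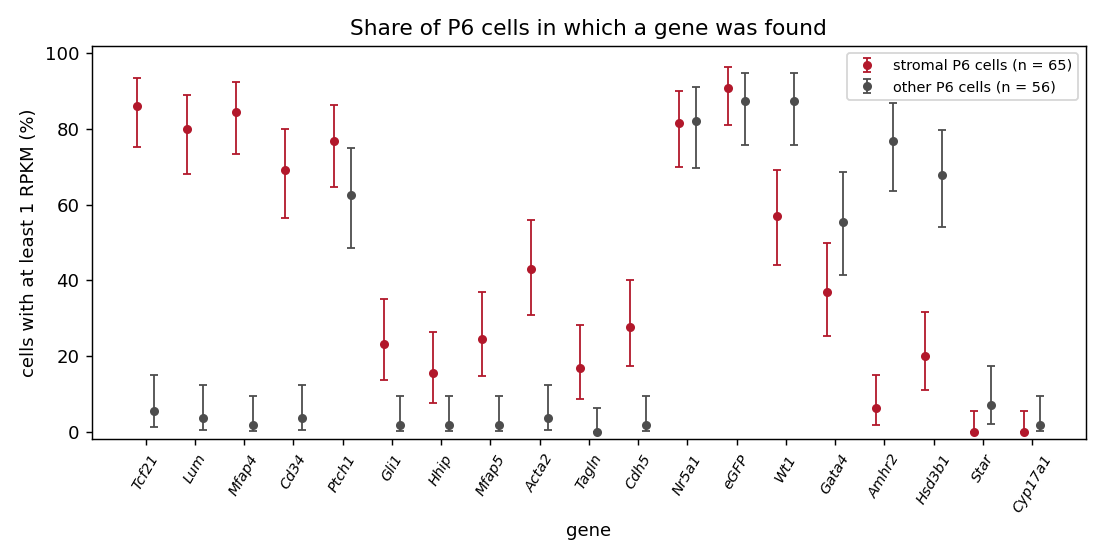
The vertical axis is the percent of P6 cells in which a gene had at least 1 RPKM, for 65 stromal cells (red) and 56 other cells (grey), with exact 95% binomial intervals that cover counting error only. Tcf21 was found in 56 stromal cells and 3 other cells, Nr5a1 in 53 and 46, and Star and Cyp17a1 in 0 stromal cells.

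The reporter and its gene were shared by both classes. Nr5a1 averaged 28.6 and 10.9 RPKM in members, against 21.8 and 18.7 RPKM, and was found in 53 of 65 members and 46 of 56 other cells. eGFP averaged 838 and 716 RPKM in members, against 577 and 505 RPKM, and neither difference was called (adjusted p = 0.94 and 0.34, limma). Over the 65 members, Nr5a1 and eGFP correlated at r = 0.71 on the log2(RPKM + 1) scale (0.71 and 0.77 within captures). Wt1, a factor of the early gonad and of granulosa cells, was found in 37 members and averaged 61 and 60.6 RPKM, against 124 and 166 RPKM, without passing the test (adjusted p = 0.15, limma). Gata6 was the 1 of 10 gonadal factors tested that was called, and it fell: 9.33 and 7.69 RPKM in members, against 169 and 87.1 RPKM (log2 difference -3.69 ± 0.65, adjusted p = 1.9e-06, limma).

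Receptors and their responses were mostly not called. Nr3c1, the glucocorticoid receptor gene, averaged 17.3 and 19.6 RPKM in members, against 3.43 and 0.760 RPKM, with an adjusted p of 0.11 by limma. Of 4 steroid hormone receptors tested 0 were called (2, among them Nr3c1, at an unadjusted p under 0.05), and of 5 further genes of platelet-derived growth factor signalling 0 were called (3, among them Pdgfrb, at an unadjusted p under 0.05). Pdgfrb averaged 20.7 and 10.9 RPKM in members, against 5.95 and 0.0081 RPKM. Id2, a target of bone morphogenetic proteins that blocks helix-loop-helix factors, rose to 390 and 407 RPKM in members, against 8.45 and 93 RPKM (log2 difference 3.74 ± 0.45, adjusted p = 6.8e-14, limma), while Id1 and Id3 were not called. It was the 1 gene called of 11 in that list. Of 7 Notch genes and 4 inhibitors of cyclin-dependent kinases 0 were called by limma, with 1 each (Hey2 and Cdkn1c) at an unadjusted p under 0.05. The receptor Notch2 was found in 65 of 65 members and 50 of 56 other cells.

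In the hedgehog path, the receptor gene Ptch1 was found in most members. It averaged 76.6 and 63.4 RPKM in members, against 18.7 and 15.4 RPKM in other cells, with member medians of 50.2 and 9.77 RPKM and highest cells of 464 and 519 RPKM. Both capture means of members were above both of other cells, and the call was close to the threshold (log2 difference 1.98 ± 0.64, adjusted p = 0.049, limma). Ptch1 was found in 50 of 65 members and also in 35 of 56 other cells, in which the medians were 6.57 and 0.648 RPKM.

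The pathway's transcription factor Gli1 was rarer and was nearly absent from the other cells. Gli1 averaged 8.48 and 6.17 RPKM in members, against 0 and 0.120 RPKM, and was found in 15 of 65 members and 1 of 56 other cells. Hhip, a secreted trap for the ligand, was found in 10 members and 1 other cell. Neither Gli1 nor Hhip was called (adjusted p = 0.20 and 0.49, limma). Of the 15 members with Gli1, 13 also held Ptch1.

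Of all 11 hedgehog receptors and transducers tested, Ptch1 alone was called, and the median log2 difference was 1.34. The transducer Smo stood at 10.31 and 29.1 RPKM in members, against 45.8 and 11.51 RPKM, and Gas1, a co-receptor, at 27.9 and 55 RPKM, against 11.1 and 19.9 RPKM. Among ligands, Shh was at 0 in every P6 cell. Ihh was found in 0 members and 4 other cells, and Dhh in 2 members and 5 other cells, all 5 in capture 1.

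At this depth, Mfap5 was high in some members and at or near 0 in the rest. It averaged 74 and 77.7 RPKM, against 0.676 and 0 RPKM in other cells, but was found in 16 of 65 members, 8 in each capture. In those 16 it lay between 13.4 and 1106 RPKM, and the highest of the remaining members had 0.219 RPKM. The call (log2 difference 5.89 ± 0.93, adjusted p = 5.0e-08, limma) thus rests on 16 of the 65 members.

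Cd34, a sialomucin of progenitors, fibroblasts and endothelium, was more widespread. It was found in 45 of 65 members and 2 of 56 other cells, and averaged 97.4 and 91.6 RPKM in members, against 2.81 and 0.0011 RPKM (log2 difference 5.61 ± 0.85, adjusted p = 9.5e-09, limma). Of the 16 members with Mfap5, 13 held Cd34. The adventitial list was otherwise thin. Of 9 genes tested, Cd34, Igfbp6 and Gsn were called higher (Gsn through capture 1 alone, with 53.8 and 35.7 RPKM in members, against 0.132 and 37.1 RPKM), and 8 of the 15 on the list, Pi16, Dpp4, Thy1 and C3 among them, reached 1 RPKM in no member.

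The smooth muscle genes Acta2 and Tagln rose. Acta2, smooth muscle actin, averaged 451 and 266 RPKM in members, against 3.33 and 0 RPKM in other cells (log2 difference 7.38 ± 0.70, adjusted p = 5.7e-23, limma). It was found in 15 of 25 members of capture 1 and 13 of 40 of capture 2, with a highest value of 4943 RPKM. Tagln, which binds actin, averaged 115 and 54.9 RPKM in members and was at 0 in all other cells but was found in 11 members only, of which 8 held Mfap5 and 8 held Acta2. The other smooth muscle and pericyte genes were sparse. Myh11 was found in 5 members and Cnn1 in 0. Rgs5 came from 1 member, at 4133 RPKM, which also held Kcnj8. The summed level of the list's 10 genes had a median of 182 and 0.173 RPKM in members, against 0 in both captures of other cells, and its part in the result was not tested.

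The promoter of Acta2 is shown because this gene was among the strongest rises and because the serum response factor is known to act on it through CArG boxes. Its window and that of Amhr2, a gene that fell, were read from RefSeq on GRCm38.p6, as the 250 bases before the start of each gene, 5′ to 3′ on the strand of the gene. Of 15 genes looked up, 11 had a window. Acta2 lies at chr19:34255374-34255623 on the minus strand, and capitals mark CArG-like letters, CC and GG around 6 bases of which at least 5 are A or T: CCCTATATGG, starting 84 bases before the start, and CCTTGTTTGG, 34 bases before it. Amhr2 lies at chr15:102445117-102445366 on the plus strand, and capitals mark CAAGGTCA, the letters of an NR5A1 site, 232 bases before the start.
Acta2: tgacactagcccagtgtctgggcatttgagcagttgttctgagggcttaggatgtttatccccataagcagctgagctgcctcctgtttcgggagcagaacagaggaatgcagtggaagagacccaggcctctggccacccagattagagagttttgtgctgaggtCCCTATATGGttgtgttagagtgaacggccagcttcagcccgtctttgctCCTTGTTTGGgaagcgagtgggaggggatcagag
Amhr2: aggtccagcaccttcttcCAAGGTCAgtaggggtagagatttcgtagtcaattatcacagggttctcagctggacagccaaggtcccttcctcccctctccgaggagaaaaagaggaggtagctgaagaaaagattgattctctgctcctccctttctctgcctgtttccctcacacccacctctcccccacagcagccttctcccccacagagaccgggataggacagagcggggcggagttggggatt
Searched on both strands, a CArG-like run was in 3280 of 32851 windows of 300 bases (9.98%) and CAAGGTCA in 512 (1.56%), and no 2 matches overlap in the windows shown. The CArG pattern was chosen after the Acta2 values were seen. The GLI motif GACCACCCA was in 83 windows (0.253%) and in neither the Ptch1 nor the Hhip window. A match of letters is a description and not a site.

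Inside the members, cells were also typed by 2 scores. H was the mean log2(RPKM + 1) of Ptch1, Gli1 and Hhip, and F the same mean of Mfap5 and Cd34. H exceeded F by at least 1 in 12 members (4 and 8 in captures 1 and 2), here called the hedgehog-type cells after the score, and F exceeded H by at least 1 in 29 members (11 and 18), the adventitial-type cells. The other 24 were between. The hedgehog name rests mostly on Ptch1, which all 12 hedgehog-type cells held, with Cd34 in 3 of them and Mfap5 in 0. The adventitial name is also only that of the score and rests mostly on Cd34. Of the 29 adventitial-type cells, 27 held Cd34, 15 Mfap5 and 21 Ptch1, and 8 of the 15 adventitial genes were found in no member. Gli1 was found in 4 of the 12, against 6 of the 29 adventitial-type cells, and Hhip in 5 of 12, against 1 of 29. The 2 scores did not oppose each other: they correlated at r = 0.14 over the 65 members (Spearman 0.16), with 0.28 in capture 1 and -0.03 in capture 2. Of the 50 members with Ptch1, 35 also held Cd34, 14 held Mfap5 and 25 held Acta2. Insl3, Cyp17a1 and Star were at 0 in the 12 hedgehog-type cells, as in every member. Hsd3b1, lower in members as a class, was still found in 13 of the 65, 10 in capture 1 and 3 in capture 2. Its 2 highest members, at 329 and 93.6 RPKM in capture 1, were hedgehog-type cells, while most of the 12 were at 0. The next 2, at 77.8 and 40 RPKM in capture 1, were a cell between the types and an adventitial-type cell.

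**Figure D4:**
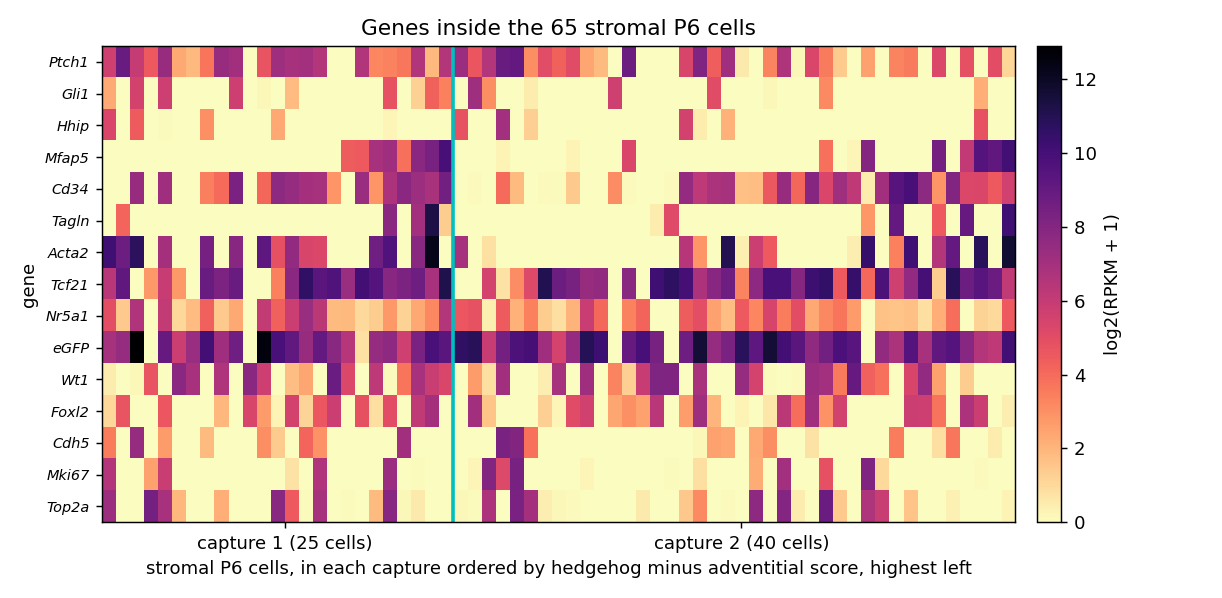
Columns are the 65 stromal cells, by capture, ordered by H minus F from left to right, and rows are genes. Colour is log2(RPKM + 1). Ptch1 and Cd34 run through most of both captures, while Gli1 (15 cells), Hhip (10 cells), Mfap5 (16 cells) and Tagln (11 cells) are found in few.

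Between the types, 190 of 13049 genes were at least 4-fold higher in the hedgehog-type cells in both captures (1.46%), and 783 were at least 4-fold lower (6%). The hedgehog type had fewer cells and a median of 2455 detected genes, against 2997 in the adventitial type, and the part of this in the unequal counts was not tested. Igfbp6, a binding protein of insulin-like growth factor 2, averaged 0.666 and 1.52 RPKM in the hedgehog type, against 60.6 and 89.4 RPKM in the adventitial type, and was found in 2 of 12 and 15 of 29 cells. Tagln averaged 4.21 and 0 RPKM, against 260 and 120 RPKM. Fcgrt, the neonatal Fc receptor, averaged 4.38 and 1.93 RPKM, against 130 and 236 RPKM, and was found in 4 of 12 and 20 of 29 cells. In the other direction, Col4a2, a basement membrane collagen, averaged 175 and 78.2 RPKM in the hedgehog type, against 29.6 and 12 RPKM. The endothelial cadherin gene Cdh5 was also higher but fell short of 4-fold in capture 1. It averaged 45.8 and 75.1 RPKM in the hedgehog type, against 14.5 and 1.72 RPKM in the adventitial type. Cells with Cdh5 were 5 of 12 and 6 of 29, and 7 of the 24 between, while Pecam1 was at 0 in all of them. The hedgehog-type means came mostly from cells at 173 RPKM in capture 1 and at 271 and 317 RPKM in capture 2. The part of Cdh5 in the difference was not tested. These are differences between types set by measured values, without a test. Fcgrt was named after its values were seen.

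Some members were in cycle. Of 8 mitotic genes (Mki67, Top2a, Cdk1, Ccnb1, Ccna2, Birc5, Cenpf and Bub1), at least 4 were found in 6 of 25 members and 8 of 40 members of captures 1 and 2, which is 24% (exact 95% interval 9.36 to 45.1%) and 20% (9.05 to 35.6%). Among other cells these were 4 of 30 and 3 of 26, or 13.3% (3.75 to 30.7%) and 11.54% (2.45 to 30.2%). The share was higher in members in both captures, a difference that was not tested, and the intervals cover counting error only. Of 15 cell cycle genes tested, 0 were called with limma, with 2 (Bub1 and Mcm6) at an unadjusted p under 0.05. Mki67 and Top2a correlated at r = 0.76 over the 65 members (0.78 and 0.76 within captures). Ogn, a gate gene, correlated with Top2a at r = -0.48 (-0.36 and -0.57). Mfap5 and Tagln correlated at r = 0.53 (0.63 and 0.47). These correlations share libraries and depth and are descriptions.

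Members of the 2 captures differed in immediate early genes, which respond to cell stress within minutes. Fos averaged 1252 RPKM in members of capture 1 and 451 RPKM in those of capture 2, with medians of 955 and 222 RPKM, and Jun 227 and 52.5 RPKM, a difference that was not tested. The other cells of the same captures did not share this order: Fos averaged 473 and 578 RPKM in them, and Jun 156 and 212 RPKM. Between classes, Egr1 was called higher in members and Klf6 lower, of 13 such genes. Egr1 averaged 1420 and 590 RPKM in members, against 425 and 654 RPKM, so its direction was set by capture 1.

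Most defining markers of other cell types were at or near 0 in members. For endothelium, Pecam1, Tek, Emcn and Cldn5 were at 0 in every member and Tie1 under 1 RPKM. Cdh5, an endothelial cadherin, was however found in 18 of 65 members and 1 of 56 other cells, averaged 14.4 and 16.1 RPKM, against 0.210 and 0 RPKM, and was called higher (log2 difference 3.88 ± 1.17, adjusted p = 0.027, limma). Kdr was found in 1 member and Egfl7 in 1. Summed over the 8 endothelial genes, members ranged up to 173 and 317 RPKM, against 53 and 124 RPKM, all with medians of 0.

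For blood cells, Ptprc stayed under 1 RPKM in members, Laptm5 and Cd52 were at 0, and Lyz2 came from 1 cell. Cd68 and Csf1r were found in 2 members each, at up to 228 and 141 RPKM, and C1qa in 1, at 53 RPKM. The oocyte genes Dazl, Gdf9, Figla and Nobox were all under 1 RPKM, and Zp3 was found in 2 members. Of 4 blood cell genes and 1 oocyte gene tested, 0 were called by limma, and 0 had an unadjusted p under 0.05. Surface epithelium was rare: Krt18 fell (0.020 and 29.4 RPKM in members, against 36.2 and 40.3 RPKM), its member mean in capture 2 coming almost wholly from 1 cell with 1172 RPKM, and 1 of 65 members held at least 2 of the 9 epithelial markers. The globin genes Hba-a1, Hba-a2, Hbb-bs and Hbb-bt were at 0 in all members, and Alas2, of haem synthesis, was found in 2.

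At E16.5 the same gate let through a different mixture of cells. It was passed by 32 of 55 and 26 of 40 cells, and at earlier stages by 49.1 to 91.5% of the cells of a capture. G had a median of 0 in E16.5 cells that passed, against 1.16 and 0.963 in P6 members. T under 3 was found in 23 of the 58 passing E16.5 cells and in 1 of 65 P6 members, and at least 2 epithelial markers in 23 and 1. Where T minus G had to reach 4, 58 P6 cells and 34 E16.5 cells were left.

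Of 15542 genes tested between P6 members and E16.5 cells passing the gate, 0 were called higher (0%) and 0 lower (0%) by limma, with 1064 genes at an unadjusted p under 0.05. At least a 4-fold difference between every pair of captures was found for 183 genes that were higher at P6 (1.18%) and 254 that were lower (1.63%). The values below are therefore differences that did not pass the test, with a lowest adjusted p of 0.0989. With the filter at 5 RPKM, 33 genes passed.

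Mfap5 and Ptch1 had higher means at P6, though neither passed the test. Mfap5 averaged 74 and 77.7 RPKM at P6, against 0 in all 58 E16.5 cells at the threshold of 1 RPKM. Ptch1 averaged 76.6 and 63.4 RPKM at P6, against 1.51 and 0.579 RPKM at E16.5, with 50 of 65 and 13 of 58 cells positive. Dpep1, Tmem100, Hpgd and Bmp3 were each found in 10 or more P6 members and in 0 of the E16.5 cells. Hpgd and Bmp3 were not particular to members at P6, being found in 27 and 22 other P6 cells. Hpgd averaged 78.2 and 60.1 RPKM in other P6 cells, against 36.4 and 31.8 RPKM in members of captures 1 and 2. Bmp3 averaged 50.05 and 23.4 RPKM, against 39.4 and 19.4 RPKM, and neither difference was called by limma. Dpep1 and Tmem100 were found in 2 and 1 other P6 cells. All 12 named genes on the higher side kept a 4-fold difference at the stricter gate.

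Epithelial genes stood on the lower side. Krt19, a keratin of epithelia, averaged 0 and 0.085 RPKM at P6, against 82.3 and 24.5 RPKM at E16.5, and Upk1b was at 0 at P6, against 52.1 and 34.6 RPKM. At the stricter gate Upk1b stood at 0 in both P6 captures, against 103 and 0 RPKM, and 5 of the 10 named genes on the lower side kept a 4-fold difference. Among those 5, Crabp1, a retinoic acid binding protein, averaged 0 in both P6 captures at the stricter gate, against 35.5 and 77.9 RPKM, and the guidance factor gene Sema3a 0 RPKM, against 30.2 and 39.1 RPKM. Igf2, a fetal growth factor, averaged 5.38 and 2.80 RPKM at P6, against 45.5 and 66.6 RPKM, and Cdkn1c, a cell cycle inhibitor, 50.4 and 35.1 RPKM, against 508 and 189 RPKM.

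**Figure D5:**
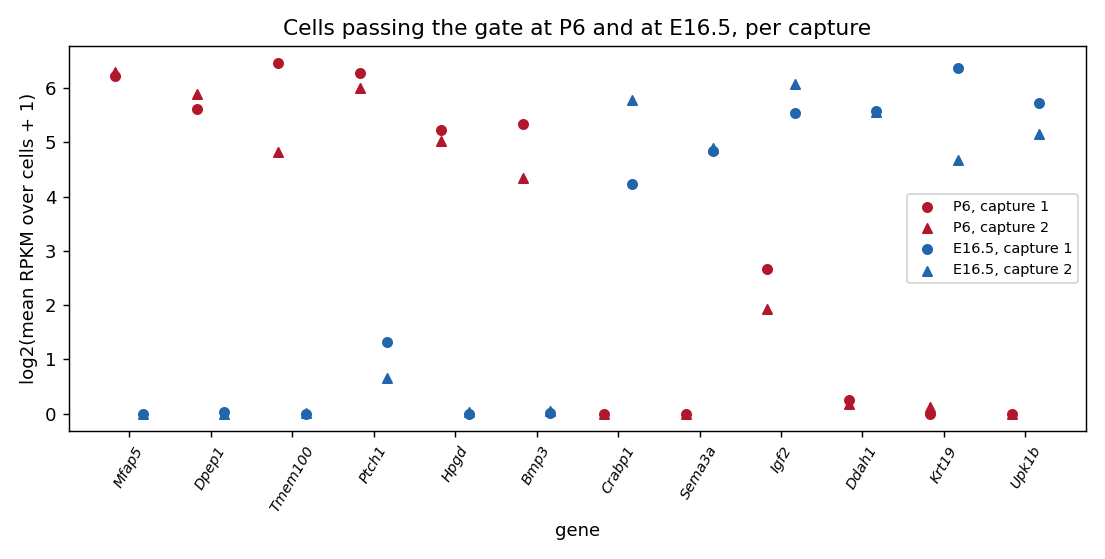
The vertical axis is log2(mean RPKM over cells + 1) of each capture, for P6 stromal cells (red) and for E16.5 cells that passed the same gate (blue), with circles for capture 1 and triangles for capture 2. Mfap5 and Ptch1 lay above the E16.5 captures and Crabp1, Sema3a, Igf2 and Krt19 below, although 0 genes passed the test.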

How the data were processed

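The deposited table holds a value per gene and cell, taken here as RPKM (reads per kilobase, scaled to total reads), made by the authors from single-cell libraries; the label of the unit is not in the file, and the values were read as RPKM from their steps of whole reads. Reads were placed on GRCm38.p3 (mm10), per the submitters' processing notes. For aligner and counter, a name is not given in the sources used here. A repeat library of 1 cell was averaged with that cell's first library, so 663 columns gave 662 cells. Left out were 27 gene names turned into dates.

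Per capture and class, RPKM was averaged over cells and log2(mean + 1) was compared with limma 3.58.1 (R 4.3.3, trend, moderated), P6 classes paired by capture because both come from the same chip run. Genes needed a mean of at least 1 RPKM in 1 profile, and p was adjusted by Benjamini-Hochberg over all of them. Fold changes on this scale understate low genes. A gene was found in a cell at 1 RPKM or more. No doublet caller was run, and the closing section gives counts without cells in which both gate scores reached 2. The code of the fits was run on simulated data drawn with the fits' own spread. That run could not test the shared spread, the sampling of cells or the gate. Named genes were the 12 largest rises and 10 largest falls per comparison, without gate genes, the hedgehog, adventitial and steroid genes, and up to 5 called and 3 uncalled genes per list. Members, lists and rules were chosen with earlier results of these data known, and the CArG pattern after the values of Acta2 were seen. Some genes of the lists are not reported here.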

Additional observations from a re-analysis of the deposited data

How the results depend on the processing

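Against the other P6 cells, 627 genes were called in the fit paired by capture. Without the replicate block 67 were called (35 higher, 32 lower), in the joint fit with the E16.5 captures 67 (29 higher, 38 lower), and with no filter on low values 0. In the joint fit with a P6 capture left out the count was 0 without either. There the prior spread has few degrees of freedom, whereas in the paired fit it is wholly the shared one. Means of log2 values gave 346 higher and 569 lower calls of 7835 genes, with the median of all genes at -0.18. Leaving out cells with both gate scores of at least 2, chosen after seeing the data, gave 297 higher and 276 lower. In the joint fit without P6 replicate 1, Egr1 (-0.15) and Gsn (-0.051) turned round. Against E16.5, 0 genes were called, with 33 at the filter of 5 RPKM and 123 with means of log2 values. Members were 52.9% of P6 cells at a gate of 2, 57% at a gate of 0 and 58 of 121 cells at a gate of 4. With 2 captures a class and 1 residual degree of freedom, small differences could not be seen, and most members lack most genes at this depth.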
